A study of Mus musculus with 7 samples.

Results

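The small leucine-rich proteoglycans are secreted matrix proteins with a core of leucine-rich repeats. Their transcripts were followed here in genetically traced mouse heart fibroblasts over the weeks after birth. The 9 genes were taken by name: decorin (Dcn), biglycan (Bgn), asporin (Aspn), lumican (Lum), fibromodulin (Fmod), prolargin (Prelp), osteomodulin (Omd), osteoglycin (Ogn) and podocan (Podn). They are 9 of 54735 gene symbols in the count table. All 9 passed the filter on low counts, which left 17636 genes.

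The family is divided into classes by sequence and by the sugar chains carried. Class I members (Dcn, Bgn, Aspn) and class II members (Lum, Fmod, Prelp, Omd) bind collagen fibrils and influence their diameter and spacing. Ogn belongs to class III and Podn to class V. Decorin and biglycan carry chondroitin or dermatan sulfate chains and bind TGF-beta, lumican, fibromodulin and osteomodulin can carry keratan sulfate, and asporin carries no such chain. In the heart these proteins are made largely by fibroblasts and are part of the collagen network that forms between the muscle cells.

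Bulk RNA sequencing had been done on green fluorescent cells sorted from hearts of pooled male and female mice. Postn P7 (n = 2) were cells of 7-day-old PostnMCM;R26eGFP mice. Tcf21 P30 (n = 3) and Tcf21 P7 (n = 2) were cells of Tcf21MCM;R26eGFP mice aged 30 days and 7 days. In every group a recombinase that tamoxifen activates (MerCreMer, MCM) was driven by the periostin (Postn) or the Tcf21 gene and switched on the eGFP reporter at the R26 locus. Periostin is a matricellular protein of developing and activated fibroblasts, and Tcf21 is a transcription factor of resident cardiac fibroblasts. A label therefore marks cells that had used the driver gene when tamoxifen was present, and the time of tamoxifen is not given in the sources used here. No group of Postn-traced cells aged 30 days was analysed here, so the comparison of Postn P7 with Tcf21 P30 cannot tell lineage and age apart.

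The libraries held 15207835 to 18519528 counts. All 10 fibroblast markers were detected in every library, and their sum in normalised CPM (counts divided by the effective library size and brought to the same total) was 35334 and 43120 in Postn P7, 37410 to 47245 in Tcf21 P30, and 48507 and 48766 in Tcf21 P7. The fibroblast markers include the collagen genes Col1a1, Col1a2 and Col3a1, so their sum also follows collagen transcripts. Transcripts of other heart cells were present as well. The 12 endothelial markers summed to 1762 and 1076 CPM in Postn P7, to 4076, 1061 and 1273 CPM in Tcf21 P30 and to 1296 and 1142 CPM in Tcf21 P7, so that replicate 1 of Postn P7 and of Tcf21 P30 stood apart. The 12 macrophage markers summed to 355 and 484 CPM in Postn P7, 428 to 636 CPM in Tcf21 P30, and 1204 and 1209 CPM in Tcf21 P7. The 12 mural cell markers summed to 2290 and 1533 CPM in Postn P7, 467 to 1760 CPM in Tcf21 P30, and 1185 and 1198 CPM in Tcf21 P7. The 10 cardiomyocyte markers summed to 1553 and 625 CPM in Postn P7. In Tcf21 P30 their sum was 723 to 1303 CPM, and in Tcf21 P7 it was 1281 and 1132 CPM. Of 8 Schwann cell markers 6 were tested and summed to between 13.8 and 60.8 CPM, while Foxd3 was at 0 throughout. Of 8 epicardial markers 7 were tested and summed to 65.8 and 6.41 CPM in Postn P7. Their sum was 1.97 to 17.9 CPM in Tcf21 P30, and 25.5 and 21.1 CPM in Tcf21 P7. Muc16, an epicardial marker, was at 0 in 4 of the 7 libraries.

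The 9 transcripts together made up 0.744% and 0.826% of all counts in Postn P7, 0.945%, 1.09% and 1.08% in Tcf21 P30, and 0.819% and 0.846% in Tcf21 P7. Their sum was highest in the 3 Tcf21 P30 libraries, at 9522, 11339 and 10949 normalised CPM, while the Postn P7 libraries had 6877 and 8044 CPM and those of Tcf21 P7 had 8406 and 8669 CPM. Dcn, Lum and Bgn accounted for 71.7% to 73.7% of this sum in every library. The make-up of the rest differed between groups. Prelp took 6.98% ± 0.298 of the members' counts in Postn P7, 13.7% ± 0.411 in Tcf21 P30 and 9.98% ± 0.296 in Tcf21 P7 (SD, n = 2, 3 and 2). Aspn ran the other way, with 11.3% ± 0.202 in Postn P7, 4.16% ± 0.136 in Tcf21 P30 and 7.72% ± 0.363 in Tcf21 P7. In bulk libraries fewer cells that express a gene and less RNA per cell cannot be told apart.

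**Figure D1:**
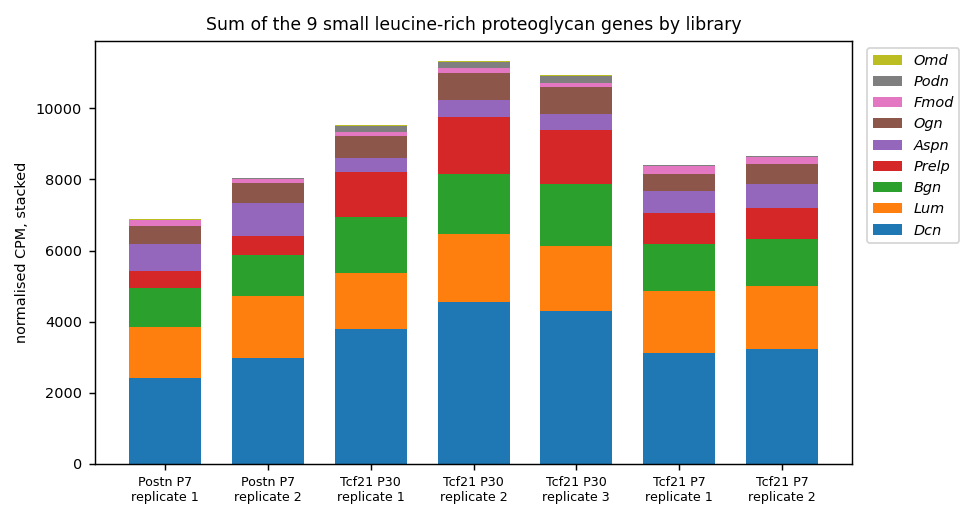
Normalised CPM of the 9 members stacked for each of the 7 libraries, with the groups in the order Postn P7, Tcf21 P30 and Tcf21 P7. The columns reach 6877 and 8044 CPM in Postn P7, 9522 to 11339 CPM in Tcf21 P30 and 8406 and 8669 CPM in Tcf21 P7; Dcn, Lum and Bgn fill most of each column.

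Levels between genes were compared as CPM per kilobase of exon (CPM per kb). Lum and Dcn held the top 2 places among the members in each library. Lum stood at 648 ± 90.7 CPM per kb in Postn P7, 729 ± 69.8 in Tcf21 P30 and 716 ± 11.5 in Tcf21 P7 (SD). Dcn stood at 463 ± 67.9 CPM per kb in Postn P7, 721 ± 66.9 in Tcf21 P30 and 545 ± 14.5 in Tcf21 P7. In Tcf21 P30 the means of the pair were close, with Lum slightly above Dcn in each library. Among 17569 genes with a length, Lum ranked 9 in Postn P7, 14 in Tcf21 P30 and 11 in Tcf21 P7, and Dcn ranked 23, 15 and 20 in the same groups. Aspn came next in Postn P7, at 359 ± 46.1 CPM per kb, and in Tcf21 P7, at 280 ± 19.3. In Tcf21 P30 it stood at 188 ± 22.7 CPM per kb, below Ogn and Bgn, and Prelp came next after Lum and Dcn at 403 ± 47.4 CPM per kb. Ogn and Bgn were close neighbours in the order in all groups, at 277 ± 27.8 and 274 ± 14.8 CPM per kb in Tcf21 P30. Fmod lay far below them, at 43.1 ± 4.64 CPM per kb in Postn P7, 40.7 ± 6.56 in Tcf21 P30 and 61.8 ± 2.31 in Tcf21 P7. Podn and Omd came last except that Podn reached the level of Fmod in Tcf21 P30, at 37.2 ± 4.27 CPM per kb. The place of Bgn rests on its length, since the union of its exons is 6.099 kb and its longest transcript 2.666 kb. With the longest transcript as the length of each gene, Bgn came directly after Lum and Dcn in all 7 libraries and Dcn passed Lum in Tcf21 P30.

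In Tcf21-traced fibroblasts transcripts of 5 of the 9 members were higher at P30 than at P7 and those of 2 were lower. Since the time of tamoxifen is not given, age and the set of cells labelled cannot be told apart here. At P30 Omd and Podn were higher by more than 6-fold, Prelp by 1.71-fold, Ogn by 1.35-fold and Bgn by 1.25-fold, while Aspn and Fmod were lower, at 0.671 and 0.659 of the P7 level. Dcn and Lum did not pass the threshold. These are counts from edgeR's quasi-likelihood test at an adjusted p of 0.05 in Tcf21 P30 against Tcf21 P7. The background in this comparison is high, as 31.8% of all 17636 genes passed, 16.7% higher and 15.0% lower. The median log2 fold change was 0.40 over the members and 0.03 over all genes tested. The count of 7 members fell to 3 without Tcf21 P7 replicate 1, to 2 without Tcf21 P7 replicate 2 and to 3 without Tcf21 P30 replicate 3. Omd and Podn were called in each of 17 alternative fits.

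At day 7, 2 members differed between Postn-traced and Tcf21-traced fibroblasts. Prelp and Podn were lower in Postn P7, at 0.610 and 0.586 of the Tcf21 P7 level, and no member was higher at the adjusted threshold. At an unadjusted p under 0.05 in edgeR, 4 were lower and 2, Aspn and Omd, were higher. DESeq2 called 3 members, with Fmod lower in addition and none higher. Against 12.0% of all genes called (6.52% higher and 5.49% lower in Postn P7), 2 of 9 members passed. Median log2 fold changes were -0.24 over the members and 0.00 over all genes. Neither call held when Postn P7 replicate 2, either Tcf21 P7 library or Tcf21 P30 replicate 3 was left out. Without Postn P7 replicate 1 Podn alone was called, and without Tcf21 P30 replicate 1 there were 4 calls, with Fmod lower and Omd higher in addition. Scaling by library size alone moved the median log2 fold change over all genes to 0.12. In that fit Prelp was lower, Aspn higher and Podn not called (adjusted p = 0.063).

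Between Postn P7 and Tcf21 P30, which differ in both lineage and age, 6 members were lower in Postn P7 and Aspn was higher. Lum and Fmod were not called. Of all genes 24.2% passed, 11.7% higher and 12.5% lower, and the median log2 fold change was -0.59 over the members and -0.01 over all genes. Aspn, Bgn, Prelp, Omd and Podn were called in each of 17 alternative fits. The 3 comparisons share libraries pairwise and are not independent of one another.

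**Figure D2:**
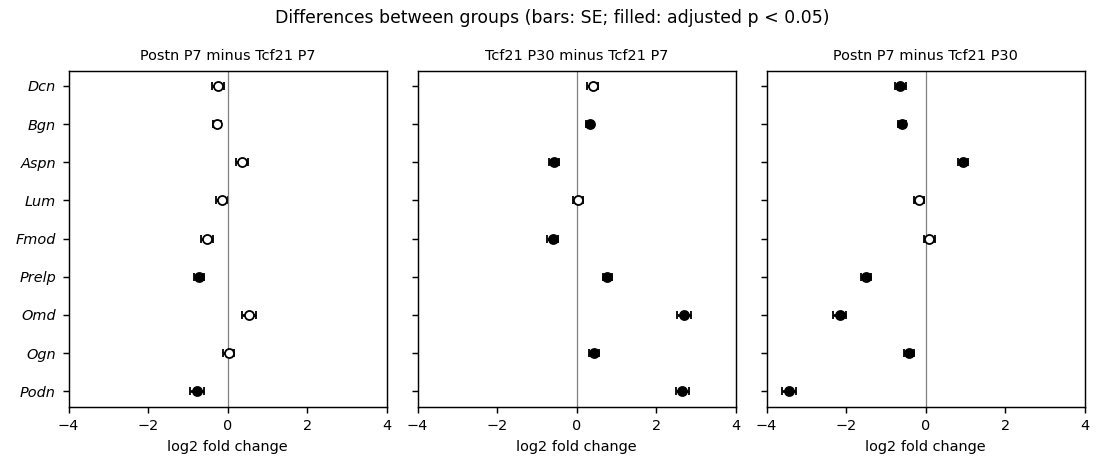
Log2 fold changes of the 9 members (points) with standard errors (bars) in the 3 comparisons; the group named first is on top of the ratio, and filled points have an adjusted p under 0.05. Omd and Podn lie farthest to the right for Tcf21 P30 minus Tcf21 P7, at 2.70 and 2.66, and Aspn alone is filled on the right for Postn P7 minus Tcf21 P30.

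Among class I genes, Dcn (chromosome 10, 97479609 to 97518143, plus strand, GRCm38, protein coding) encodes the decorin core protein. It was measured at 2422 and 2983 normalised CPM in Postn P7, at 3787, 4557 and 4287 in Tcf21 P30 and at 3122 and 3242 in Tcf21 P7. No libraries of different groups overlapped. With so few libraries per group such separation says little, here and for the members below, and its share over all genes was not counted. The increase with age (log2 0.40 ± 0.14 SE, edgeR adjusted p = 0.055) missed the threshold, with a 95% interval of 0.09 to 0.72. It was called in 8 of 17 alternatives. Dcn was lower in Postn P7 than in Tcf21 P30 (-0.64 ± 0.14, adjusted p = 0.012), a call lost in 3 alternatives. Against Tcf21 P7 the difference was -0.24 ± 0.15 (adjusted p = 0.33).

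Bgn (chromosome X, 73483602 to 73495933, plus strand) encodes biglycan, which has a pair of sugar chains and signals through Toll-like receptors when it is released from the matrix. Its CPM were 1081 and 1135 in Postn P7, 1572, 1681 and 1751 in Tcf21 P30, and 1340 and 1324 in Tcf21 P7. Replicates lay close together and the groups did not overlap. The increase at P30 was small (0.32 ± 0.10, adjusted p = 0.037) and kept its call in 7 of 17 alternatives. The lower level in Postn P7 than in Tcf21 P30 (-0.59 ± 0.10, adjusted p = 0.0038) was larger. The difference between the lineages at P7 was -0.27 ± 0.11 (adjusted p = 0.14). The ratio of Bgn to Dcn counts stayed near 0.413 ± 0.0465 in Postn P7, 0.398 ± 0.025 in Tcf21 P30 and 0.419 ± 0.0146 in Tcf21 P7, within the spread of the libraries.

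Aspn (chromosome 13, 49544443 to 49567565, plus strand) encodes asporin, which has a stretch of aspartates near its start and competes with decorin for collagen. It was highest in Postn P7, at 769 and 922 CPM, lowest in Tcf21 P30, at 383, 487 and 456 CPM, and in between in Tcf21 P7, at 627 and 691 CPM. No group overlapped another. Aspn was the sole member with its highest mean in Postn P7. It was lower at P30 than at P7 in Tcf21-traced cells (-0.58 ± 0.13, adjusted p = 0.013) and higher in Postn P7 than in Tcf21 P30 (0.93 ± 0.13, adjusted p = 0.0016). The difference between the lineages at P7 was 0.36 ± 0.15 (adjusted p = 0.14). It was called in 2 of 17 alternatives, and the fall with age lost its call in 4.

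**Figure D3:**
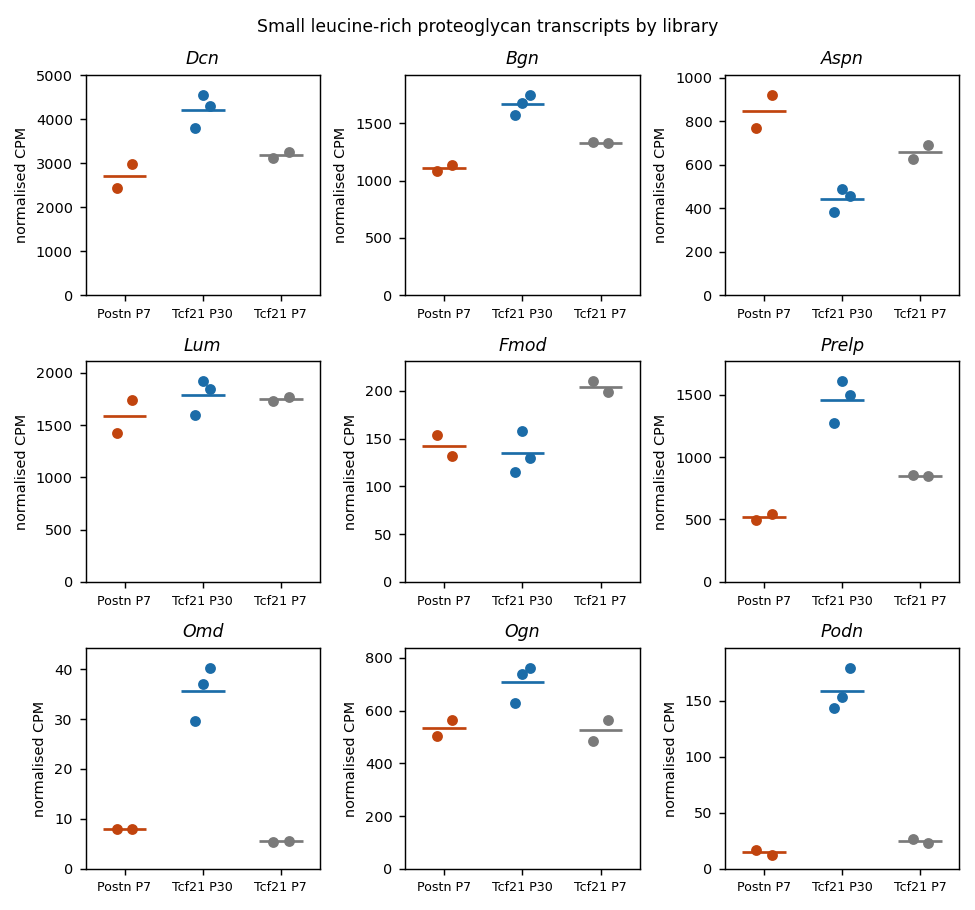
Normalised CPM of each member in each library (points) with the group mean (line), groups from left to right Postn P7, Tcf21 P30 and Tcf21 P7; every axis starts at 0 and has its own scale. Podn and Omd are several times higher in the 3 Tcf21 P30 libraries, Aspn is lowest there, and all pairs of groups overlap for Lum.

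In class II, Lum (chromosome 10, 97565128 to 97572703, plus strand) encodes lumican, a keratan sulfate proteoglycan known for its part in the clear cornea. It varied least between groups, with no log2 difference larger in size than -0.17. Its CPM were 1430 and 1744 in Postn P7, 1593, 1919 and 1845 in Tcf21 P30, and 1733 and 1772 in Tcf21 P7, and every pair of groups overlapped. The change with age was 0.03 ± 0.13 (adjusted p = 0.89), with a 95% interval of -0.27 to 0.32, and its sign turned under some settings. The difference of Postn P7 from Tcf21 P7 had an interval of -0.47 to 0.18. A change of Lum as large as that of Prelp with age therefore lay outside the interval.

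Fmod (chromosome 1, 134037254 to 134048277, plus strand) encodes fibromodulin, a relative of lumican that binds collagen and the cross-linking enzyme lysyl oxidase. It was the sole member with its highest mean in Tcf21 P7. Its CPM were 153 and 132 in Postn P7, 115, 158 and 130 in Tcf21 P30, and 210 and 199 in Tcf21 P7. Neither of the other groups reached the Tcf21 P7 range. It was lower at P30 (-0.60 ± 0.14, adjusted p = 0.012), with 12 of 17 alternatives called. The difference of Postn P7 from Tcf21 P7 was of like size (-0.52 ± 0.15) but missed the threshold (adjusted p = 0.062) and passed it in 6 of 17 alternatives. Postn P7 and Tcf21 P30 overlapped and their difference was 0.08 ± 0.14, with an interval of -0.23 to 0.40.

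Prelp (chromosome 1, 133910304 to 133921414, minus strand) encodes prolargin, whose basic start binds heparan sulfate and links basement membranes to collagen. It had 494 and 544 CPM in Postn P7, 1270, 1605 and 1500 in Tcf21 P30, and 857 and 847 in Tcf21 P7. No libraries overlapped. Prelp was lower in Postn P7 than in Tcf21 P7 (-0.71 ± 0.13, adjusted p = 0.018) and higher in Tcf21 P30 than in Tcf21 P7 (0.78 ± 0.12, adjusted p = 0.0027). Postn P7 lay 2.81-fold below Tcf21 P30 (-1.49 ± 0.13, adjusted p = 0.00014). The increase with age missed the threshold, at an adjusted p of 0.051, without Tcf21 P7 replicate 2 and with the Tcf21 P7 libraries summed. Of its exon bases 9.68% are shared with the antisense gene Gm15851, and without a stated strand setting their reads cannot be told apart.

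Omd (chromosome 13, 49582462 to 49592822, plus strand) encodes osteomodulin, also called osteoadherin, a keratan sulfate protein best known from bone. It was scarce, with 149 and 125 raw counts in Postn P7, 470, 585 and 731 in Tcf21 P30, and 96 in each Tcf21 P7 library. In normalised CPM this was 7.88 and 8.01 in Postn P7, 29.7, 37.1 and 40.2 in Tcf21 P30, and 5.46 and 5.54 in Tcf21 P7. The P30 libraries lay well above all P7 libraries. The age difference was 6.48-fold (2.70 ± 0.17, adjusted p = 5.4e-05), and Postn P7 was lower than Tcf21 P30 (-2.17 ± 0.17, adjusted p = 8.9e-05). At P7 the lineages did not overlap, but 0.53 ± 0.18 was not called (adjusted p = 0.089). Omd ranked 9879 of 17569 genes per kb in Postn P7, 3870 in Tcf21 P30 and 10893 in Tcf21 P7.

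In class III, Ogn (chromosome 13, 49608046 to 49624501, plus strand) encodes osteoglycin, also called mimecan, a matrix protein linked to left ventricular mass in rat and human. It had 503 and 564 CPM in Postn P7, 628, 740 and 761 in Tcf21 P30, and 486 and 564 in Tcf21 P7. The 2 groups of day 7 overlapped, and their difference was 0.02 ± 0.13 with an interval of -0.29 to 0.33. The P30 libraries lay above both. Ogn was higher at P30 (0.43 ± 0.12, adjusted p = 0.030; called in 12 of 17 alternatives). It was lower in Postn P7 than in Tcf21 P30 (-0.41 ± 0.12, adjusted p = 0.045), a call that held in 6 of 17 alternatives.

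In class V, Podn (chromosome 4, 108014791 to 108096445, minus strand) encodes podocan, which restrains the growth of vascular smooth muscle cells in mice. It had the widest range of the members, with 17.0 and 12.3 CPM in Postn P7, 144, 154 and 179 in Tcf21 P30, and 26.8 and 23.4 in Tcf21 P7. No libraries of different groups overlapped. The age difference was 6.32-fold (2.66 ± 0.17, adjusted p = 5.5e-05), and Postn P7 was 10.8-fold lower than Tcf21 P30 (-3.43 ± 0.18, adjusted p = 2.2e-05). At P7 Podn was lower in the Postn lineage (-0.77 ± 0.18, adjusted p = 0.032), a call kept in 10 of 17 alternatives. Its rank per kb was 9984 in Postn P7, 1566 in Tcf21 P30 and 7780 in Tcf21 P7.

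Levels of other cell types moved beside some of these results. In Tcf21 P30 all 9 members were lowest in replicate 1, the library with 4076 CPM of endothelial and 1760 CPM of mural cell markers. In Postn P7 replicate 1, the other endothelial-rich library, Fmod and Podn were higher than in replicate 2. Fmod had 153 against 132 CPM and Podn 17.0 against 12.3 CPM, while the other members were lower. Without both endothelial-rich libraries the age differences were called for 8 members, and Omd, Podn and Prelp were among them. Of the 12 macrophage markers 9 were lower in Postn P7 and 9 were lower in Tcf21 P30 than in Tcf21 P7. Over the alternatives 3 to 11 were lower in Postn P7, with 3 when either Tcf21 P7 library was left out, and 9 to 11 in Tcf21 P30. Of 6 Schwann cell markers tested 2 were higher in each of these comparisons. The 12 markers of valve and tendon cells, which also make several of these proteoglycans, summed to 634 and 686 CPM in Postn P7, 681 to 930 CPM in Tcf21 P30, and 687 and 669 CPM in Tcf21 P7. Of these 12, 1 was higher and 2 lower in Postn P7, and 4 were higher and 3 lower in Tcf21 P30, each against Tcf21 P7. Of the 10 fibroblast markers 1 was higher and 1 lower in Postn P7, and 4 were higher and 3 lower in Tcf21 P30. The 3 lower ones were Col1a1, Col1a2 and Col3a1, which are counted again among the collagens below. Of the 10 cardiomyocyte markers 1 was called, lower in Tcf21 P30. No endothelial (12), mural (12) or epicardial (7 tested) marker was called in either comparison by edgeR. At an unadjusted p under 0.05, 1 mural marker was higher in Postn P7, and 1 mural and 1 epicardial marker were lower in Tcf21 P30, and DESeq2 called 1 mural marker as lower there. Other settings called more of these lists. In Postn P7 up to 6 mural and up to 5 endothelial markers were higher over the 17 alternatives, and up to 4 epicardial markers were lower. In Tcf21 P30 up to 10 endothelial markers were higher, up to 10 mural and up to 7 epicardial markers were lower. Without Tcf21 P30 replicate 1, 9 mural markers were lower in Tcf21 P30 and 3 were higher in Postn P7. With both endothelial-rich libraries left out, 10 mural, 7 epicardial and 4 endothelial markers were lower in Tcf21 P30. With every gene of at least 1 count kept, 10 endothelial markers were higher in Tcf21 P30. Of the cardiomyocyte markers up to 6 were lower in Tcf21 P30 and up to 7 in Postn P7. Some alternatives made calls in the opposite direction. Cardiomyocyte markers were then higher in both comparisons and mural markers higher in Tcf21 P30. In Postn P7 endothelial markers were then lower and an epicardial marker higher. The part of these cell types in the differences of the members was not tested.

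Most of the genes lie in clusters. Some neighbours moved the same way, as Omd and Ogn did with age, and others did not. On chromosome 13 Ecm2, Aspn, Omd and Ogn follow one another on the plus strand with gaps of 11.653, 14.896 and 15.223 kb. No other coding gene lies wholly within these gaps, but Cenpp on the opposite strand spans all of them. With age Aspn was lower while Omd and Ogn were higher. The count ratio of Aspn to Ogn was 1.58 ± 0.076 in Postn P7, 0.623 ± 0.0317 in Tcf21 P30 and 1.26 ± 0.0466 in Tcf21 P7 (SD, n = 2, 3 and 2). The ratio of Omd to Ogn was 0.0149 ± 0.00103 in Postn P7, 0.0501 ± 0.00278 in Tcf21 P30 and 0.0105 ± 0.001 in Tcf21 P7. Libraries of different groups did not overlap in either ratio, which is free of the scaling between libraries. Prelp and Fmod lie 115.839 kb apart on chromosome 1, on opposite strands. Their ratio was 3.68 ± 0.643 in Postn P7, 10.9 ± 0.695 in Tcf21 P30 and 4.17 ± 0.123 in Tcf21 P7. Lum begins 46.984 kb after Dcn on chromosome 10, and the ratio of Dcn to Lum was 1.70 ± 0.0116 in Postn P7, 2.36 ± 0.0307 in Tcf21 P30 and 1.82 ± 0.0193 in Tcf21 P7.

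**Figure D4:**
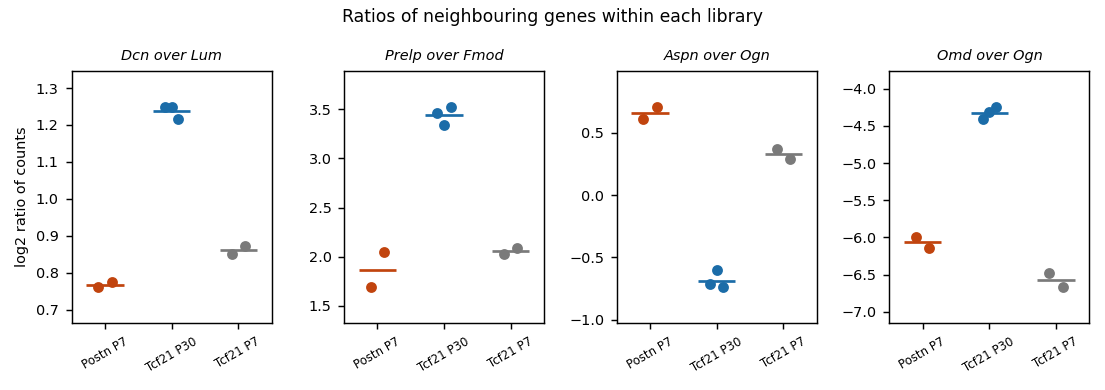
Log2 ratio of raw counts of members near each other on a chromosome, for each library (points) with the group mean (line). Groups run from left to right as Postn P7, Tcf21 P30 and Tcf21 P7. Omd lies between Aspn and Ogn. Each panel has its own axis, which does not start at 0. In every panel the 3 Tcf21 P30 libraries stand apart from the libraries of day 7, lower for Aspn over Ogn and higher for the other pairs.

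Ecm2, Aspn, Omd and Ogn all lie within Cenpp, a centromere protein gene on the opposite strand. The exons of Cenpp share 7 bases with Aspn and none with Omd or Ogn. Cenpp itself was 72.4 ± 5.56 CPM in Postn P7, 33.8 ± 5.31 CPM in Tcf21 P30 and 56.0 ± 3.64 CPM in Tcf21 P7. It was lower at P30 (-0.73 ± 0.14, adjusted p = 0.0060), as Aspn was, whereas Omd and Ogn were higher. Whether reads of Aspn and Cenpp were mixed in counting was not tested.

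The 250 bases before the start of transcription differ in composition between these genes. They are shown for the chromosome 13 neighbours, among which Aspn was lower and Omd and Ogn higher with age, and for Podn, which shared the size of Omd's increase. The sequences are from RefSeq (GRCm38.p6), 5′ to 3′ on the gene's strand, and capitals mark matches to a searched motif. Windows were found for 7 of the 9 members. The windows of Aspn (chr13:49544193-49544442, plus), Omd (chr13:49582212-49582461, plus), Ogn (chr13:49607765-49608014, plus) and Podn (chr4:108031955-108032204, minus) read as follows.
Aspn: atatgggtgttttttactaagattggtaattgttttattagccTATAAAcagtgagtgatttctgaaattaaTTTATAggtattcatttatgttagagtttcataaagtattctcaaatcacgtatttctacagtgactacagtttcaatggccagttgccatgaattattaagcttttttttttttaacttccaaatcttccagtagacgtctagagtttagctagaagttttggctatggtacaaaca
Omd: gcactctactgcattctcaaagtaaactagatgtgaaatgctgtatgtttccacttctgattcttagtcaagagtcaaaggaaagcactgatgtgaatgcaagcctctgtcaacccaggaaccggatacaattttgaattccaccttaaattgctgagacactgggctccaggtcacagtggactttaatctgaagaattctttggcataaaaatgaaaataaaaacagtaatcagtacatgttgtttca
Ogn: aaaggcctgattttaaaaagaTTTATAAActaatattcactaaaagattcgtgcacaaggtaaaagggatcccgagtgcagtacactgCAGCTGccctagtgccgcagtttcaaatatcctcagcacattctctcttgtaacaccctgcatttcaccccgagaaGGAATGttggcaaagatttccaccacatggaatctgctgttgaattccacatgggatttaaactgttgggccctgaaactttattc
Podn: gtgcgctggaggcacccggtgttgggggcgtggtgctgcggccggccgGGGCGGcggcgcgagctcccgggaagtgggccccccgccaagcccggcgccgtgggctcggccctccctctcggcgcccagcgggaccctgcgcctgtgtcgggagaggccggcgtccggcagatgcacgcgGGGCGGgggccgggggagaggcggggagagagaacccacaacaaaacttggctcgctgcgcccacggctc

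The motifs, searched on both strands, were the TATA box (TATAAA), the AP-1 site (TGANTCA), the TEAD site (GGAATG), an E-box (CAGCTG), the GC box (GGGCGG) and the SMAD box (CAGAC). Among 32851 mouse promoter windows of this length, 12.4% held the TATA box, 6.75% the AP-1 site, 12.6% the TEAD site, 13.0% the E-box, 32.7% the GC box and 42.2% the SMAD box. The Aspn window is 30% G and C, lower than all but 1.47% of windows, and holds 2 TATA boxes. The Ogn window (42% G and C) holds 2 TATA boxes that overlap each other, a TEAD site and an E-box. The Omd window has 38.4% G and C and no match to any of the 6 motifs. The Podn window is 78% G and C, above 97.9% of all windows, with 32 CpG pairs and 2 GC boxes. Omd and Podn, with the largest increases, differed in the base composition of this window. The RefSeq start of Podn lies inside the longer GENCODE span given above, and a second RefSeq start has its own window with 64% G and C. A match describes the letters only.

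Close relatives were examined next. Epyc, which encodes epiphycan of cartilage, and Kera, which encodes keratocan of cornea, lie behind Lum on chromosome 10, and Chad encodes chondroadherin of cartilage. Of 8 relatives tested, these 3 were higher at P30 and none was lower, against 16.7% of all genes higher and 15.0% lower. None was lower at an unadjusted p under 0.05 in edgeR, while DESeq2 called 1 as lower. Epyc had 51 and 70 raw counts in Postn P7, 401, 385 and 438 in Tcf21 P30, and 102 and 75 in Tcf21 P7. Its age difference was 2.28 ± 0.24 (adjusted p = 0.00039), and it was called in all 17 alternatives. Kera was near the limit of detection, with 12 and 6 counts in Postn P7, 30, 27 and 58 in Tcf21 P30, and 11 and 14 in Tcf21 P7 (1.65 ± 0.46, adjusted p = 0.028). Chad stood at 33.3 ± 6.04 CPM in Tcf21 P30 and 10.3 ± 1.33 CPM in Tcf21 P7 (1.70 ± 0.42, adjusted p = 0.025). Without Tcf21 P7 replicate 1, Tcf21 P7 replicate 2 or Tcf21 P30 replicate 3, and with the Tcf21 P7 libraries summed or a replicate block, 1 relative was called. Ecm2, the relative beside Aspn, was not called with age (0.24 ± 0.11, adjusted p = 0.13). Between the lineages at P7 none of the 8 was called by edgeR, where 1 was lower at an unadjusted p under 0.05, and DESeq2 called 1 as lower. Ecm2 differed by -0.18 ± 0.12 (edgeR adjusted p = 0.33). In Postn P7 against Tcf21 P30, 4 were lower, with Epyc at -2.78 ± 0.25.

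The collagens to which these proteins bind ran against the majority of the members with age. For the counts here and in the lists below, the shares of all genes called serve as background. They were 31.8% at P30, 12.0% between the lineages at P7 and 24.2% in Postn P7 against Tcf21 P30. Of 11 collagen genes tested 8 were lower at P30 and none higher (0 higher also at an unadjusted p under 0.05 in edgeR and by DESeq2), with a median of -0.94, and 6 to 10 were lower over the alternatives. Col1a1, the main fibrillar collagen, was 5283 ± 649 CPM in Tcf21 P30 and 10536 ± 241 CPM in Tcf21 P7 (-0.996 ± 0.153, adjusted p = 0.0023). Col3a1, which forms thinner fibrils with it, was 10256 ± 1113 CPM in Tcf21 P30 and 19810 ± 24.5 CPM in Tcf21 P7 (-0.95 ± 0.15, adjusted p = 0.0024). The fibril-associated Col12a1 (-1.54 ± 0.15) and Col14a1 (-1.33 ± 0.12) were lower too. At P7, 3 of the 11 were lower in Postn P7 than in Tcf21 P7. They were Col6a2 (-0.64 ± 0.12), Col14a1 (-0.54 ± 0.13) and Col6a3 (-0.50 ± 0.13), and 0 to 5 were lower over the alternatives, with 0 when any single library of day 7 or Tcf21 P30 replicate 3 was left out. Against Tcf21 P30, 5 of the 11 were higher in Postn P7 and none lower, while 6 of the 9 proteoglycans were lower. Over the alternatives 2 to 7 collagens were higher and 0 to 2 lower. There were 2 higher without Postn P7 replicate 2 and 3 higher without Tcf21 P30 replicate 3 or either Tcf21 P7 library, and 2 were lower without Tcf21 P30 replicate 1.

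**Figure D5:**
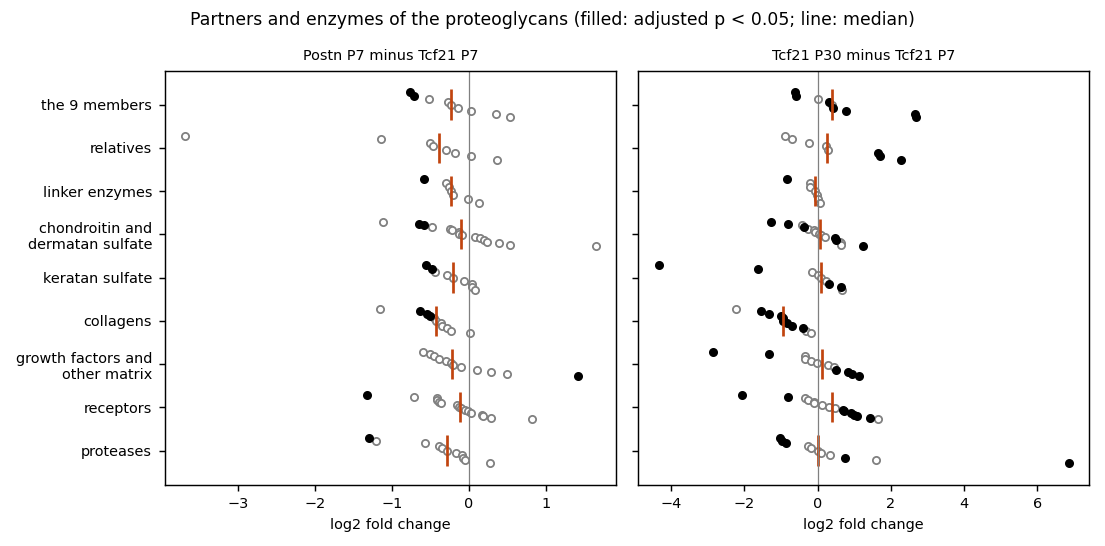
Log2 fold changes of the 9 members and of genes in 8 related lists for Postn P7 minus Tcf21 P7 (left) and Tcf21 P30 minus Tcf21 P7 (right); each point is a gene tested, filled where its adjusted p is under 0.05, and the vertical line is the list's median. The collagens lie to the left of 0 at P30, with a median of -0.94, and the members mostly to the right, with a median of 0.40.

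Enzymes that build the sugar chains were called in both directions with age. So were all genes tested, with 16.7% higher and 15.0% lower at P30. Of 7 genes for the linker between core protein and chain, Xylt2, a xylosyltransferase that starts it, was the sole one called and was lower at P30 (-0.82 ± 0.11, adjusted p = 0.0011). Of 16 genes for chondroitin and dermatan sulfate 3 were higher and 3 lower. Over the alternatives 1 to 5 were higher and 1 to 4 lower, with 1 in each direction when either Tcf21 P7 library was left out. Csgalnact1, which begins chondroitin chains, was higher (1.24 ± 0.16) and Chst7, a sulfotransferase, was higher (0.49 ± 0.10), whereas the chain polymerase genes Chsy1 (-1.26 ± 0.10) and Chpf (-0.80 ± 0.17) were lower. Of 9 genes tested for keratan sulfate and tyrosine sulfation 2 were higher and 2 lower, against 0 to 2 higher and 1 to 3 lower over the alternatives, with 0 higher without Tcf21 P7 replicate 1. Chst1, which sulfates galactose in keratan sulfate, rose (0.65 ± 0.12), Chst2 fell (-1.61 ± 0.13), and the fucosyltransferase Fut8 rose slightly (0.31 ± 0.09), a call kept in 9 of 17 alternatives. B3gnt7, an extending enzyme of keratan sulfate, was scarce at 0.126 ± 0.219 CPM in Tcf21 P30 and 2.61 ± 0.716 CPM in Tcf21 P7 (adjusted p = 0.011).

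At P7 the called enzymes were 1 of 7 in the linker list, 2 of 16 for chondroitin and dermatan sulfate and 2 of 9 for keratan sulfate. All were lower in Postn P7. Of all genes 12.0% were called, 6.52% higher and 5.49% lower. In Postn P7 against Tcf21 P7, B3gat3 of the linker (-0.59 ± 0.15), Chpf2 (-0.65 ± 0.12) and Chst7 (-0.58 ± 0.11) of chondroitin sulfate, and B4galt1 (-0.48 ± 0.12) and Chst1 (-0.56 ± 0.13) of keratan sulfate were lower. These calls were not stable, since B3gat3 and Chst1 were called in 7 of 17 alternatives, B4galt1 in 9 and Chpf2 and Chst7 in 12. In Postn P7 against Tcf21 P30, 4 enzymes were higher and 5 lower, among them Chst2 (1.65 ± 0.14), Chst1 (-1.20 ± 0.13), Csgalnact1 (-1.16 ± 0.16), Chst7 (-1.07 ± 0.10) and Chsy1 (1.04 ± 0.10).

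Growth factors and matrix proteins that these proteoglycans bind moved both ways with age, 4 higher and 2 lower of 12 tested. Ctgf, a matricellular growth factor that decorin binds, was 886 ± 40.6 CPM in Tcf21 P30 and 403 ± 12.6 CPM in Tcf21 P7 (1.14 ± 0.09). Igf1, a growth factor, was higher by 0.94 ± 0.14. Eln, the elastin gene, was lower (-1.33 ± 0.11) and Wisp1, a relative of Ctgf, fell to 2.83 ± 0.827 CPM in Tcf21 P30, against 20.5 ± 0.954 CPM in Tcf21 P7 (-2.85 ± 0.22). Wisp1 was the sole gene of this list called between the lineages at P7. Its level was 55.1 ± 6.86 CPM in Postn-traced cells, against 20.5 ± 0.954 CPM in Tcf21-traced cells (1.42 ± 0.22, adjusted p = 0.011). Against Tcf21 P30, 3 were higher and 5 lower in Postn P7, with Wisp1 at 4.27 ± 0.22 and Fgf2 at -1.08 ± 0.14.

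Of 16 receptors 6 were higher and 2 lower at P30, with 5 to 8 higher and 0 to 4 lower over the alternatives. Tgfbr3, the betaglycan co-receptor for TGF-beta (1.44 ± 0.11), Egfr, a receptor of decorin (1.09 ± 0.11), and Lrp1, which takes up decorin (0.99 ± 0.15), were higher in all 17 alternatives. Met, another receptor that decorin binds, was scarce, at 0.878 ± 0.498 CPM in Tcf21 P30 and 3.66 ± 1.74 CPM in Tcf21 P7 (-2.06 ± 0.51, adjusted p = 0.018). At P7 the called receptor was Cd14, a co-receptor of Toll-like receptors that macrophages express, with 11.7 ± 3.06 CPM in Postn-traced cells and 29.4 ± 0.235 CPM in Tcf21-traced cells (-1.33 ± 0.24, adjusted p = 0.017). Summed macrophage markers lay at 355 and 484 CPM in the Postn libraries of day 7, against 1204 and 1209 CPM in the Tcf21 libraries, and their part in the Cd14 difference was not tested. Against Tcf21 P30, 9 of the 16 receptors were lower in Postn P7 and 3 higher, with Tgfbr3 at -1.80 ± 0.11 and Lrp1 at -1.41 ± 0.15.

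Among 11 proteases and cofactors tested that act on these proteins, 2 were higher and 3 lower at P30 (1 to 3 higher and 2 to 3 lower over the alternatives). Mmp3, stromelysin, which degrades decorin, had 0.979 ± 0.337 CPM in Postn P7, 144 ± 26.2 CPM in Tcf21 P30 and 1.23 ± 0.432 CPM in Tcf21 P7. Its age difference (6.87 ± 0.29, adjusted p = 2.1e-05) held in all 17 alternatives. Mmp14, a membrane-bound collagenase that cleaves lumican, was lower (-1.02 ± 0.14), as were Adamts4, an aggrecanase (-0.98 ± 0.10), and Tll2, a relative of the enzyme that trims the biglycan propeptide (-0.86 ± 0.15). Tll2 was also lower in Postn P7 than in Tcf21 P7 (-1.30 ± 0.17, adjusted p = 0.0063), the sole protease called there. In Postn P7 against Tcf21 P30, 2 were higher and 3 lower, with Adamts4 at 1.26 ± 0.10 and Adamts5 at -1.04 ± 0.15.

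Genes whose levels followed each member most closely were ranked by Pearson's r of log2 CPM over the 7 libraries, among 9969 genes with at least 10 CPM on average. Where the groups lie apart, such an r mostly reflects the 3 group means. For Lum all pairs of groups overlapped, so its r also follows differences between replicates. Each r is given as a description. Rab7 was most like Dcn (r = 0.999), Gnao1 most like Bgn (0.997), Plekhh2 most like Aspn (0.999) and Fut10 most like Lum (0.989). Wdr18 was most like Fmod (0.985), Aldh2 most like Prelp (0.998), Spon1 most like Omd (0.997), Atp6v1h most like Ogn (0.984) and Gramd4 most like Podn (0.997). Second places went to Il17ra, Cradd, Cenpp, Sulf2, Tvp23a, Dhrs7, Dynlt3, Med19 and Ifnar2 in the same order of members. Spon1, which encodes a secreted matrix protein, was 143 CPM in Postn P7, 732 CPM in Tcf21 P30 and 92.7 CPM in Tcf21 P7 on average. An r above 0.9 was reached by 816 genes for Prelp and by 106 genes for Lum, the member that varied least.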

How the data were processed

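The authors deposited raw counts per gene symbol for 7 libraries, whole numbers without normalization, with 15207835 to 18519528 counts each. Per the submitters' processing notes the aligner was STAR and the build GRCm38. The counting program, annotation and strand setting are not given in the sources used here, so reads of overlapping or antisense genes may be mixed.

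The tests were run with edgeR 4.0.16 in R 4.3.3 (filterByExpr, 17636 genes kept; TMM scaling; robust quasi-likelihood F-test on all 7 libraries with a mean per group; Benjamini-Hochberg adjustment over all genes tested, threshold 0.05). The standard error is the size of the log2 fold change over the square root of F, and intervals are 95%. CPM are scaled by TMM factors. Exon lengths and positions came from GENCODE M21 (54106 symbols matched), promoter windows from RefSeq. The procedure was also run on counts simulated with the spread estimated from these libraries, which does not check the effect of an outlying library. Alternatives used DESeq2 1.42.0, limma-voom (limma 3.58.1), other scalings and filters, fits with a replicate block and fits without single libraries.

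The members and the gene lists were chosen with earlier results of these data known. The lists were 8 of partners, enzymes and relatives and 8 of cell type markers. The valve and tendon list shares Kera and Chad with the relatives, and the endothelial list shares Kdr with the receptors. The fibroblast list shares Col1a1, Col1a2 and Col3a1 with the collagens, so the results of these 2 lists are not separate. In each list up to 4 called genes with the largest fold were named per comparison, or otherwise the most expressed gene, and for each member the 2 genes with the most similar pattern. The labels do not say that libraries came from separate animals or sorts, so p-values measure only the spread between these libraries, which may be technical. Replicates differed by more than counting noise, and least in Tcf21 P7. Chi-squared over degrees of freedom was 18.4 in Postn P7, 9.9 to 38.1 in Tcf21 P30 and 3.43 in Tcf21 P7.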

Additional observations from a re-analysis of the deposited data

How the results depend on the processing

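Over 17 alternatives for each of 9 members and 3 comparisons (459 results), 382 kept their direction and side of the threshold, 53 lost the threshold, 17 passed it and 7 changed sign. In Postn P7 against Tcf21 P7 the number of members called was 0 with the Tcf21 P7 libraries summed, 4 without both endothelial-rich libraries and 0 to 4 when 1 library was left out. In Tcf21 P30 against Tcf21 P7 it was 2 with the Tcf21 P7 libraries summed and 2 to 8 when 1 library was left out. In Postn P7 against Tcf21 P30 it stayed between 5 and 7. All sign changes concerned log2 fold changes that were not called. With 1 library left out, Ogn in Postn P7 against Tcf21 P7 ranged from -0.073 to 0.15, Lum in Tcf21 P30 against Tcf21 P7 from -0.033 to 0.11 and Fmod in Postn P7 against Tcf21 P30 from -0.032 to 0.24. Fmod there was -0.13 without both endothelial-rich libraries. The causes were not tested. Replicate numbers are not said to mark a shared litter or day, and deviations of equally numbered libraries correlated at 0.0399 to 0.312, so they were not used to pair libraries. With a replicate block 2, 5 and 7 members were called in the 3 comparisons, and Lum changed by -0.0051 with age. Leaving out a library of a group of 2 leaves a lone library, whose spread is taken from the other groups. Summing the Tcf21 P7 libraries and leaving out the endothelial-rich ones were chosen with earlier results known. With exon length taken from the longest transcript, the mean level over the groups became 717 CPM per kb for Dcn, 514 for Bgn and 18.2 for Podn.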
